A study of Mus musculus with 6 samples.

Results

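Liver plasma carrier proteins are secreted by hepatocytes and move hormones, vitamins, lipids and other small molecules through blood. The list holds 10 genes chosen by exact symbol: Alb, Ttr, Rbp4, Ahsg, Gc, Fetub, Ambp, Itih1, Itih3, and Itih4. Of these, 9 were analyzed among the 26167 genes of the tables, and Itih1 was not analysed here. RNA came from 3 control and 3 Sora-treated tumors, 1 library per tumor, grown from mouse hepatoma cells (Hep1-6 in the sample labels, Hepa1-6 in the study's methods) that were implanted subcutaneously in female C57BL/6J mice 6 to 8 weeks old. Treated animals were given Sora (sorafenib, an inhibitor of several kinases) ip at 10 mg/kg on days 9, 11, 13, and 15. What the control mice were injected with, and the day on which these tumors were collected, are not given in the sources used here. The cell line is a single hepatoma line, and since the implant grew under the skin, the samples were not taken from liver. The control tumors carry the numbers 1, 3, and 4 in the labels and the Sora-treated tumors the numbers 2, 3, and 4.

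Albumin is the most abundant protein of plasma and carries fatty acids, bilirubin, and drugs. Transthyretin (Ttr) carries thyroxine and binds retinol-binding protein (Rbp4), the carrier of vitamin A, so that the small Rbp4 is not lost through the kidney. Several of these proteins are called negative acute-phase proteins because the liver makes less of them during inflammation, and their genes depend on liver transcription factors such as HNF4, C/EBP, and the FOXA proteins.

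The tumors had 31073830 to 36205814 counted reads each. CPM is the count of a gene scaled to library size after TMM normalization, and FPKM is also divided by the gene's length, so only FPKM is used to compare levels between genes. The count column of Sora-treated tumor 4 was computed from its FPKM values. Hepatoma epithelial markers were present in each tumor: the 10 markers together held 3715 to 4602 CPM in control and 4704 to 5209 CPM in Sora-treated tumors, with Krt8, Krt18, and Apoe among the highest and Dlk1 near 0. The 6 fibroblast markers summed to 7473 to 7733 CPM in control and 5260 to 6623 CPM in Sora-treated tumors, and the 12 leukocyte markers to 1067 to 1193 and 918 to 1026 CPM. Over the 6 red blood cell markers the sums were 47.04 to 129 and 32.9 to 44.1 CPM. Groups overlapped in the sums over 6 endothelial markers (216 to 255 and 173 to 237 CPM), 6 skin markers (308 to 1033 and 654 to 920 CPM), 6 muscle markers (160.1 to 223 and 182 to 253 CPM), and 6 fat markers (62.1 to 91.4 and 75.4 to 118 CPM). Of these 8 lists, 1 gene each was called among the hepatoma (Apoa1, higher), leukocyte (S100a9, higher), and red blood cell markers (Hba-a1, lower, whose reads a near-identical copy can share). Over all tested genes 3.29% were called. No gene of the 8 lists was called in edgeR without Sora-treated tumor 4, a fit that called 0.0306% of all genes. In that fit 8 of 11 leukocyte and 5 of 5 red blood cell markers had an unadjusted p under 0.05, against 11.9% of all tested genes. Without control tumor 1, 3 of 6 skin markers were called higher (1.07% of all genes were called). Without control tumor 3, 5 of 5 red blood cell markers were called lower (1.94% of all genes were called). Without Sora-treated tumor 3, a fit that called 7.03% of all genes, 2 leukocyte markers were called higher and 2 lower. In that fit 2 fibroblast markers were called lower and 1 hepatoma marker higher. In DESeq2, which called 7.71% of all genes, Apoa1 and S100a9 were not called (adjusted p = 0.063 and 0.053), 4 leukocyte, 3 fibroblast, and 3 red blood cell markers were called lower, and 1 other hepatoma and 1 fat marker were called higher. In bulk tumor RNA, fewer cells of a type and less RNA per cell cannot be told apart, and the part of these sums in the results was not tested.

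The carriers fell into 3 ranges of expression. Alb and Rbp4 were above 200 FPKM in every tumor, Fetub, Gc, Ttr, and Ambp were at about 1 to 19 FPKM, and Ahsg, Itih3, and Itih4 were close to 0. In control tumors the order of the means was Alb (1555 ± 203 FPKM), Rbp4 (288 ± 27.3), Fetub (16.02 ± 2.73), Gc (10.4 ± 0.276), Ttr (7.18 ± 1.53), Ambp (4.31 ± 1.74), Ahsg (0.104 ± 0.0749), Itih4 (0.0148 ± 0.0181), and Itih3 (0.00887 ± 0.00912) FPKM (SD, n = 3). The neighbors Ttr and Ambp overlapped between tumors, as did Ahsg and Itih4, and Itih4 and Itih3. The other neighbors in this order were apart in the 3 control tumors. Alb ranked 30 of all 26167 genes by mean FPKM in control tumors and 56 in Sora-treated tumors. Rbp4 ranked 196 and 159, and Ttr ranked 7083 and 11209. In Sora-treated tumors, Ambp (3.49 ± 0.837 FPKM) stood above Ttr (1.61 ± 0.253 FPKM; SD, n = 3) with no overlap, so this pair had the reverse order of its control means.

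**Figure D1:**
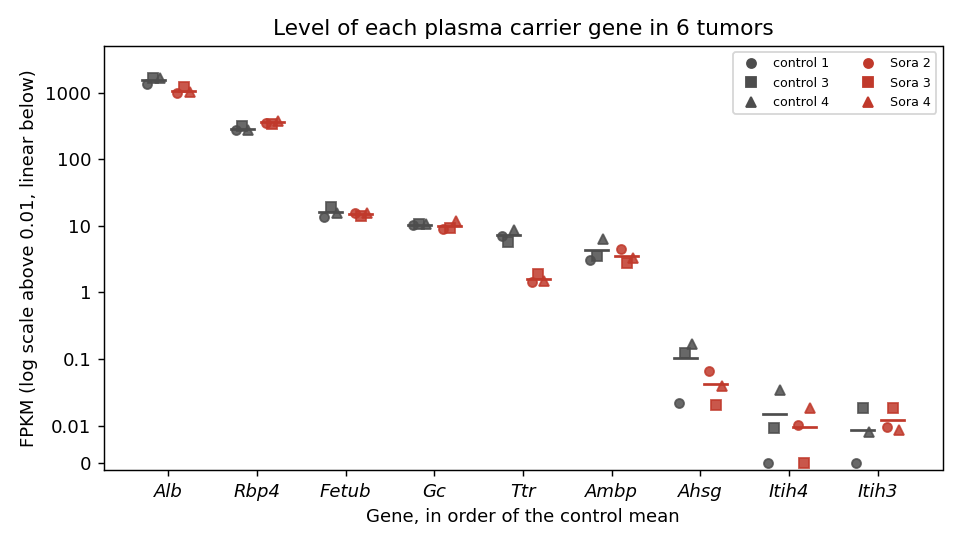
FPKM of the 9 analyzed carriers (y axis, log scale above 0.01 and linear below) in each of 3 control (gray) and 3 Sora-treated (red) tumors, with a line at each group mean and 1 symbol per tumor. Alb and Rbp4 lie above 200 FPKM in every tumor, Ahsg, Itih4, and Itih3 lie below 0.2 FPKM, and Ttr shows the widest gap between the groups.

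Of the 9 analyzed carriers, 6 had at least 10 counts in at least 3 tumors and were tested: Alb, Ttr, Rbp4, Gc, Fetub, and Ambp. By edgeR's quasi-likelihood test with Benjamini-Hochberg adjustment over 16513 genes, Ttr and Alb were down-regulated and none of the 6 was called higher (1, Rbp4, in DESeq2). Over all tested genes, 3.29% were called, 1.34% as lower and 1.94% as higher. The members had been chosen with earlier results of these data known, so 2 of 6 is a description and not a test of the list. The median log2 fold change over the 6 was -0.20, beside -0.000369 over all tested genes, and it was -0.07 without control tumor 4, -0.10 without Sora-treated tumor 3, and -0.36 without control tumor 1. Groups did not overlap for Ttr, Alb, and Rbp4, whereas this was so for 22.2% of all tested genes.

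Ttr, on chr18:20664209-20674326 of GRCm38.p6, had the largest log2 fold change of the 6 tested carriers. It stood at 9.096, 7.71, and 11.5 CPM in control tumors 1, 3, and 4 and at 1.85, 2.47, and 2.05 CPM in Sora-treated tumors 2, 3, and 4. The highest Sora-treated tumor was well under the lowest control tumor. These levels rested on 251 to 418 reads per control tumor and 58 to 83 reads per Sora-treated tumor. The means were 9.42 ± 1.897 and 2.13 ± 0.315 CPM (SD, n = 3), a control level 4.43 times that of Sora-treated tumors. The log2 fold change was -2.15 (standard error 0.21, 95% interval -2.61 to -1.68, adjusted p = 0.0055, edgeR). With each tumor left out in turn, it lay between -2.27 and -1.98 and the adjusted p between 0.001 and 0.046 (edgeR). It passed in 14 of 15 alternatives, the exception being log2(FPKM + 1) of all genes in limma (adjusted p = 0.15), a fit that called no gene at all. Per unit of the summed FPKM of the epithelial keratins Krt8 and Krt18 in the same tumor, the difference in Ttr was -2.45 on the log2 scale, with no overlap (exact permutation test, two-sided p = 0.1, n = 3, the smallest that 3 tumors against 3 allow). This scaling was chosen after the marker sums had been seen.

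Alb, on chr5:90460870-90476602 of GRCm38.p6, was the most abundant carrier in every tumor. It stood at 2652, 3510, and 3437 CPM in control tumors 1, 3, and 4 and at 1994, 2445, and 2129 CPM in Sora-treated tumors 2, 3, and 4. The groups did not overlap, although control tumor 1 and Sora-treated tumor 3 were close. Alb took 0.272% to 0.346% of all counted reads in control tumors and 0.201% to 0.247% in Sora-treated tumors. The means were 3200 ± 476 and 2189 ± 231 CPM (SD, n = 3), and the log2 fold change was -0.55 (standard error 0.12, 95% interval -0.82 to -0.27, adjusted p = 0.041, edgeR). The call did not hold without control tumor 3 (adjusted p = 0.094), control tumor 4 (0.13), Sora-treated tumor 2 (0.18), or Sora-treated tumor 4 (0.17) in edgeR's test, while the log2 fold change stayed between -0.67 and -0.48. Over all 15 alternatives the call was made in 7. In DESeq2 the adjusted p was 4.2e-05. Relative to Krt8 and Krt18 of the same tumor, Alb differed by -0.85 on the log2 scale, again without overlap (exact permutation test, two-sided p = 0.1, n = 3).

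The summed FPKM of the 9 carriers reached 1628, 2022, and 1994 in control tumors 1, 3, and 4, against 1358, 1567, and 1411 in the treated tumors 2, 3, and 4, most of it from Alb. Its difference was -0.38 on the log2 scale (exact permutation test, two-sided p = 0.1, n = 3). The genome places Alb beside Afp, the gene of fetal albumin, with 14111 bases between them, and Afm, the gene of the vitamin E carrier afamin, lies 10041 bases beyond Afp. Gc, which encodes the vitamin D carrier and belongs to the same family, lies 1.003 Mb on the other side of Alb (chr5:89417511-89457898). Afp was at 655, 977, and 1000.5 CPM in control tumors 1, 3, and 4 and at 844, 796, and 842 CPM in Sora-treated tumors 2, 3, and 4, so its groups overlapped (log2 fold change -0.09, 95% interval -0.39 to 0.22, adjusted p = 0.81, edgeR). The ratio of Afp to Alb FPKM within a tumor was 0.244, 0.275, and 0.288 in control, against 0.418, 0.322, and 0.391 in the treated tumors 2, 3, and 4. Each Sora-treated tumor was above each control tumor, with a difference of 0.48 on the log2 scale (exact permutation test, two-sided p = 0.1, n = 3). Afm was at 0.629 ± 0.288 and 0.495 ± 0.232 CPM (SD, n = 3), or 9 to 35 reads per tumor, and did not pass the test (log2 fold change -0.36, adjusted p = 0.78, edgeR).

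Because Alb was called and its neighbor Afp was not, the 250 bases before their RefSeq starts are shown (plus strand of GRCm38.p6, 5′ to 3′; Alb chr5:90460620-90460869, Afp chr5:90490464-90490713). Capitals mark matches, on either strand, to 6 motifs: TATAAA (the TATA box), CCAAT (the CCAAT box), GTTAAT (a motif of liver promoters), TGTTTNC (the FOXA motif), AAAGTCC (part of the HNF4 site), and TTGCNCA (the C/EBP motif).
Alb: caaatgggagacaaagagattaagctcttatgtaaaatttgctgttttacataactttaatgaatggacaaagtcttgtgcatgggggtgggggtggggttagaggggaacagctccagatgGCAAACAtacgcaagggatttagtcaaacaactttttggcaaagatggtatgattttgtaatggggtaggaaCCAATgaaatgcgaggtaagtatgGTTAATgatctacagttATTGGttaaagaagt
Afp: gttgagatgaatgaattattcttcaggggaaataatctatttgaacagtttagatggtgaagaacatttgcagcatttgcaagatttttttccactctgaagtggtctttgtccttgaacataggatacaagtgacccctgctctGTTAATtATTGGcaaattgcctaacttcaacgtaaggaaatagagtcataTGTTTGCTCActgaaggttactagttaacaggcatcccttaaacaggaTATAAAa
Both windows held CCAAT, the GTTAAT motif, and the FOXA motif. The GTTAAT motif of Alb began 32 bases before the start and that of Afp 105 bases before it. In Afp alone of this pair, TATAAA and the C/EBP motif were found, the latter overlapping the FOXA match. The TATAAA of Afp began 7 bases before the RefSeq start. The absence of these letters from the Alb window does not show that Alb lacks either element. Among 32851 RefSeq promoters of the same length, 6.43% held the GTTAAT motif, 17.8% the FOXA motif, 33.8% CCAAT, 12.4% TATAAA, 11.8% the C/EBP motif, and 3.58% the HNF4 motif. The GTTAAT motif was also present in the windows of Gc and Afm, so that all 4 genes of the albumin family held it. Of the other members with a promoter in the table (Rbp4, Ahsg, Fetub, Ambp, Itih3, and Itih4), none held it within this window. Such matches describe the letters of the window and not the binding of a factor. No link between these windows and the levels was tested, and the call for Alb was made in 7 of 15 alternatives.

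Gc, the vitamin D carrier, did not pass the test. It stood at 17.9, 19.6, and 19.2 CPM in control tumors 1, 3, and 4 and at 16.3, 16.7, and 22.04 CPM in Sora-treated tumors 2, 3, and 4, and the groups overlapped because of Sora-treated tumor 4. The log2 fold change was -0.04 (95% interval -0.32 to 0.23, adjusted p = 0.90, edgeR), an interval that does not reach the log2 fold change of Alb (-0.55). The difference between Gc and Alb was not tested.

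Rbp4, on chr19:38116620-38125321 of GRCm38.p6, did not pass the test, although its groups did not overlap. It stood at 345, 425, and 350.1 CPM in control tumors 1, 3, and 4 and at 456, 438, and 502 CPM in Sora-treated tumors 2, 3, and 4. Each Sora-treated tumor lay above each control tumor, of which control tumor 3 came nearest. The log2 fold change was 0.32 (standard error 0.10, 95% interval 0.10 to 0.53), which did not pass the threshold over all genes (adjusted p = 0.11, edgeR). It passed in DESeq2 (adjusted p = 0.019), without a filter on low counts (0.047, edgeR), and without control tumor 3 (0.046, edgeR), and in none of the other 12 alternatives. Relative to Krt8 and Krt18 the difference in Rbp4 was 0.014 on the log2 scale, and the groups overlapped (exact permutation test, two-sided p = 0.9, n = 3). The keratins had log2 fold changes of 0.30 (Krt8) and 0.33 (Krt18) that did not pass the test (adjusted p = 0.26 and 0.21, edgeR), and their part in the difference of Rbp4 was not tested.

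RefSeq gives Rbp4 a pair of starts on the minus strand, and the windows before them are shown because Rbp4 was the only one of the 6 tested carriers with a log2 fold change above 0 (capitals as above; first chr19:38125322-38125571, second chr19:38124812-38125061).
Rbp4 upstream start: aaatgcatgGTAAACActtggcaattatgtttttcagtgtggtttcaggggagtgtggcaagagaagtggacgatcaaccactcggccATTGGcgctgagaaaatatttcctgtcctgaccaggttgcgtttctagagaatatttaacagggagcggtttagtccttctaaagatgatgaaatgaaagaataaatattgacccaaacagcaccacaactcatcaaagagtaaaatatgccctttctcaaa
Rbp4 downstream start: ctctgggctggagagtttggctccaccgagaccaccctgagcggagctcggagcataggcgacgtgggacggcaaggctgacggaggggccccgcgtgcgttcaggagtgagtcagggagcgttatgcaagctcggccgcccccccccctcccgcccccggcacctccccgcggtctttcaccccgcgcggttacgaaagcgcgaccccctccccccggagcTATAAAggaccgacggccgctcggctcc
The upstream window held CCAAT and the FOXA motif, and the downstream window held TATAAA beginning 28 bases before the start. The counts do not separate these starts, and no link between the windows and the level of Rbp4 was tested. No promoter of Ttr is shown here.

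**Figure D2:**
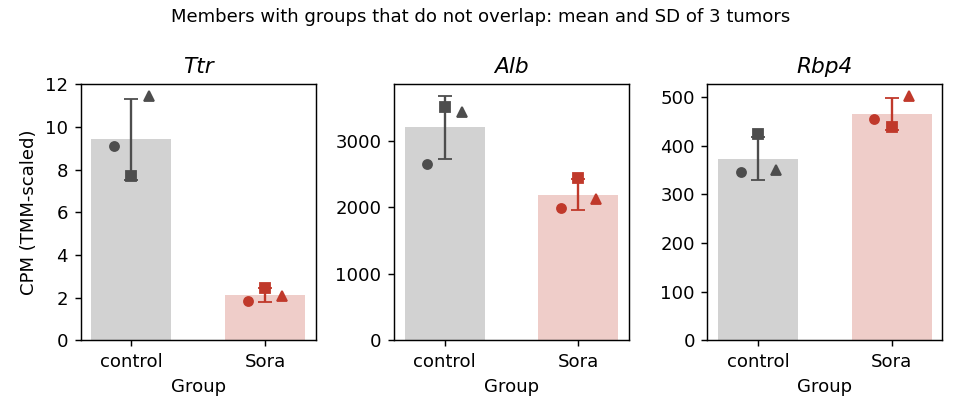
CPM (y axes, from 0) of Ttr, Alb, and Rbp4, the carriers whose groups did not overlap, with the mean (bar), SD (error bar), and the 3 tumors of each group (circle, square, and triangle for control 1, 3, 4 and Sora 2, 3, 4). Ttr falls from a mean of 9.42 to 2.13 CPM and Alb from 3200 to 2189, while Rbp4 is at 373 and 465.

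Ttr and Rbp4 form a complex in plasma, and the ratio of their FPKM within a tumor does not depend on the scaling of libraries. In control tumors 1, 3, and 4 this ratio was 0.0259, 0.0178, and 0.0322, that is, 38.5, 56.03, and 31.05 units of Rbp4 for each unit of Ttr. In Sora-treated tumors 2, 3, and 4 it was 0.00401, 0.00555, and 0.00402, or 249.7, 180.2, and 248.7 units of Rbp4 for each unit of Ttr. The ratio was 5.5-fold higher in control tumors, with no overlap (difference -2.46 on the log2 scale, exact permutation test, two-sided p = 0.1, n = 3). The ratio of Ttr to Alb was 0.00536, 0.00343, and 0.00521 in control, against 0.00145, 0.00158, and 0.00151 in the treated tumors 2, 3, and 4. This difference was -1.60 on the log2 scale (exact permutation test, two-sided p = 0.1, n = 3), and each Sora-treated tumor was below each control tumor. The Sora-treated tumors lay close together in this ratio (SD 0.06 on the log2 scale) and the control tumors further apart (0.36). Benjamini-Hochberg adjustment over the 4 comparisons of ratios and sums left each p at 0.1. Stra6, the membrane receptor for Rbp4, was at 708 ± 54.05 and 694 ± 74.5 CPM (SD, n = 3), and it did not pass the test (log2 fold change -0.03, adjusted p = 0.92, edgeR).

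**Figure D3:**
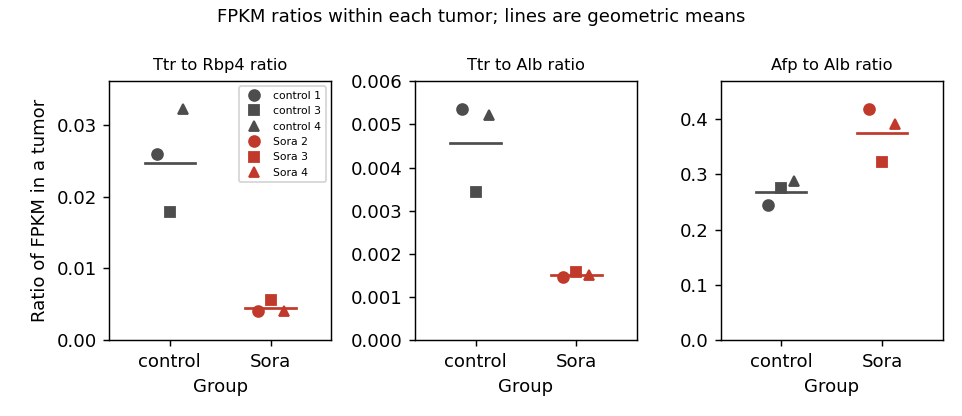
Ratio of FPKM within each tumor (y axes, linear from 0) for Ttr to Rbp4, Ttr to Alb, and Afp to Alb, with 3 control (gray) and 3 Sora-treated (red) tumors and a line at the geometric mean. Ttr is lower against both partners in each Sora-treated tumor, and Afp to Alb is higher, from 0.244 to 0.288 in control and 0.322 to 0.418 in Sora-treated tumors.

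The fetuins are relatives of the cystatins: fetuin-A (Ahsg) keeps calcium phosphate in solution in plasma, and fetuin-B (Fetub) inhibits proteases of the astacin family. Their genes are neighbors on chromosome 16, Ahsg at chr16:22892015-22899451 and Fetub at chr16:22918382-22939768, with 18930 bases between them, yet their levels in these tumors were far apart. Fetub stood at 23.5, 34.6, and 27.7 CPM in control tumors 1, 3, and 4 and at 27.3, 24.8, and 28.2 CPM in Sora-treated tumors 2, 3, and 4. The groups overlapped, and the log2 fold change was -0.09 (95% interval -0.38 to 0.19, adjusted p = 0.77, edgeR). Ahsg had 1, 6, and 9 reads in control tumors 1, 3, and 4, against 3, 1, and 2 reads in the treated tumors 2, 3, and 4. Its sums were 16 reads (exact Poisson 95% interval 9.15 to 26, for counting error only) and 6 reads (2.2 to 13.1), and at this depth no difference was detectable. The kininogen genes Kng2 and Kng1, further along the same chromosome, were also low, with 70 and 61 reads per group for Kng2 and 7 and 17 for Kng1.

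The inter-alpha-inhibitor family joins heavy chains (the Itih proteins) to bikunin, a protease inhibitor that Ambp encodes together with the lipocalin alpha-1-microglobulin, and its heavy chains bind hyaluronan. Ambp (chr4:63143275-63154172) stood at 3.801, 4.61, and 7.92 CPM in control tumors 1, 3, and 4 and at 5.56, 3.51, and 4.23 CPM in Sora-treated tumors 2, 3, and 4. Control tumor 4 was the highest and the groups overlapped, with a log2 fold change of -0.30 (95% interval -0.93 to 0.33, adjusted p = 0.66, edgeR) that became 0.08 without control tumor 4. Itih3 (chr14:30908572-30923787) had 0, 2, and 1 reads in control tumors 1, 3, and 4, against 1, 2, and 1 reads in the treated tumors 2, 3, and 4. Itih4 (chr14:30886476-30901986) had 0, 1, and 4 reads in the same control tumors, against 1, 0, and 2 reads in the treated ones. A count of 0 allows up to 3 reads, or 0.0822 to 0.0959 CPM in these libraries, so Itih3 and Itih4 were at or near the limit of detection in both groups and no fold is given. Itih2, another heavy chain on chr2:10094591-10130683, was in contrast among the abundant genes, with 132 ± 22.9 FPKM in control and 136 ± 6.2 FPKM in Sora-treated tumors (SD, n = 3; rank 433 and 434 of all genes). Its log2 fold change was 0.05 (adjusted p = 0.88, edgeR). Itih5, 22852 bases from Itih2, was at 9.85 ± 1.27 and 9.84 ± 1.5 FPKM (SD, n = 3). Itih2 thus exceeded Ambp in FPKM in every tumor.

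A further list held 20 other plasma carriers and relatives of the members, of which 19 were analyzed and 13 tested. Of these 13, Hp was called higher and Cp lower, against 1.94% and 1.34% of all genes. In DESeq2, 3 genes of the list were called (1 higher, 2 lower), against 7.71% of all genes. In edgeR, 9 of the 13 had a log2 fold change under 0 (median -0.16), a lean that turned without control tumor 4 (6 of 13, median 0.02). Ceruloplasmin (Cp), which carries copper, stood at 224, 211, and 317 CPM in control and 125, 153, and 133 CPM in Sora-treated tumors 2, 3, and 4, with no overlap. In edgeR's test its log2 fold change of -0.87 (standard error 0.14) had an adjusted p of 0.015, rising to 0.051 when Sora-treated tumor 2 was left out and to 0.096 when tumor 4 of that group was. Haptoglobin (Hp), which binds free hemoglobin, stood at 42.3, 30.9, and 47.2 CPM in control and 69.3, 75.2, and 59.2 CPM in Sora-treated tumors 2, 3, and 4, also with no overlap. In edgeR's test its log2 fold change of 0.76 (standard error 0.14) had an adjusted p of 0.021, or 0.054 without control tumor 1, 0.069 or 0.070 when tumor 2 or tumor 4 of the Sora-treated group was left out. Transferrin (Trf), which carries iron and was the most abundant of this list, was at 1615 ± 186 and 1712 ± 120.1 CPM (SD, n = 3) and did not pass (adjusted p = 0.74 at a log2 fold change of 0.08, edgeR). Apoh, Mug1, Mug2, and A1bg, all genes of abundant plasma proteins, had under 10 reads in every tumor, like Ahsg, Itih3, and Itih4. Of the 19 genes, 9 were highest in control tumor 4, as were 4 of the 9 members (Ttr, Ahsg, Ambp, and Itih4). The share of all genes that were highest in that tumor was not counted. Some of these genes (Mug1, Ahsg, and Itih4) had under 10 reads in every tumor.

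**Figure D4:**
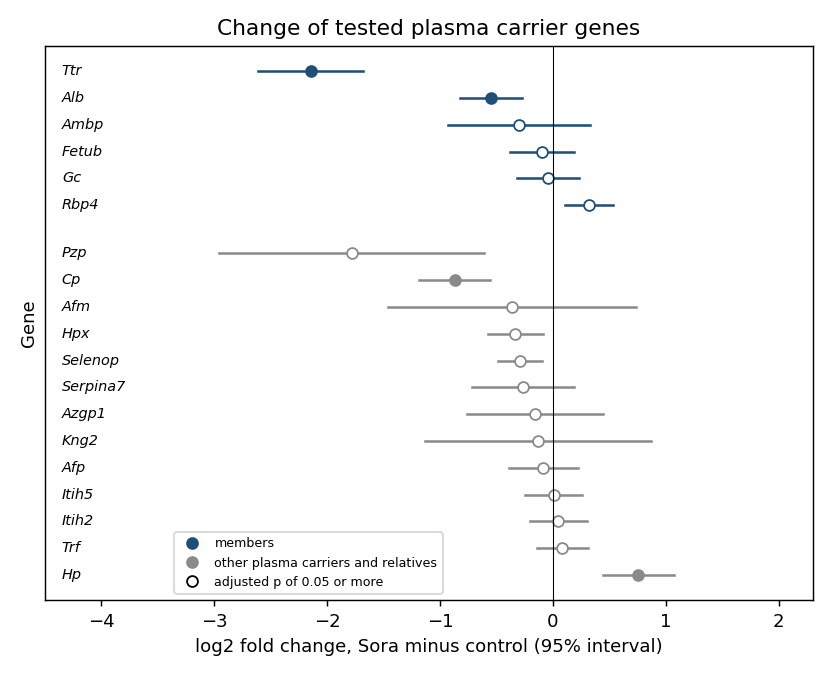
Log2 fold change with its 95% interval (x axis, Sora minus control, edgeR) of the 6 tested members (blue) and of 13 other tested plasma carriers and relatives (gray), 1 gene per line, with filled points for an adjusted p under 0.05. Ttr lies at -2.15 and Alb at -0.55, and Cp (-0.87) and Hp (0.76) are the filled points among the other genes.

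Positive acute-phase proteins, whose genes the liver turns up during inflammation, did not move as 1 group. Of 22 genes, 14 were tested, and 5 were called higher and 2 lower, against 1.94% and 1.34% of all genes. Hp, Lrg1 (a leucine-rich glycoprotein, log2 fold change 0.95, adjusted p = 0.014), Lcn2 (the siderophore-binding lipocalin, 1.22, 0.019), Mt1 (0.63, 0.018), and Mt2 (0.81, 0.012), both metallothioneins that bind zinc and copper, were higher in edgeR's test. Cp and Lbp, which binds bacterial lipopolysaccharide (-0.71, 0.024), were lower. Saa2, Saa4, Orm2, Orm3, Crp, Apcs, and Hamp had under 10 reads in every tumor. The list shares Hp, Hpx, and Cp with the one above, several of its members are also made by leukocytes or other tissues, and without Sora-treated tumor 4 none of the 14 was called (edgeR; adjusted p for Hp 0.070 and for Cp 0.096). That fit called 0.0306% of all genes. In it 11 of the 14 had an unadjusted p under 0.05, against 11.9% of all tested genes, and the log2 fold changes of Hp and Cp were 0.85 and -0.85. Mt1 and Mt2 are close paralogs, so the counting could split their reads.

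Of 22 hepatocyte transcription factors, 21 were tested, of which 2 were called higher and none lower, against 1.94% and 1.34% of all genes (8 at an unadjusted p under 0.05 in either direction, against 17.2% of all tested genes, and 1 called lower in DESeq2). Hnf4a, a nuclear receptor required for the hepatocyte state, stood at 72.6, 89.6, and 78.6 CPM in control and 149.5, 112, and 156 CPM in Sora-treated tumors 2, 3, and 4. The groups did not overlap, at a log2 fold change of 0.80 with a standard error of 0.12 (adjusted p = 0.013, edgeR). Onecut2, a homeodomain factor, rose from 26.2 ± 2.28 to 58.0 ± 15.2 CPM (SD, n = 3), by 1.15 on the log2 scale with an adjusted p of 0.012 in edgeR. Ttr and Alb fell and Hnf4a rose in the same tumors, and no call among these factors held without Sora-treated tumor 4 (Hnf4a log2 fold change 0.70, adjusted p = 0.082; Onecut2 1.05, 0.069; edgeR), while Hnf4a was at 0.051 without control tumor 4.

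Of 24 receptors and partner molecules of the carriers, 21 were tested and none was called in edgeR's test, with 7 at an unadjusted p under 0.05 (17.2% over all tested genes). DESeq2 called 3 (7.71% over all genes). Among the edgeR alternatives, 2 were called without a filter on low counts (4.54%) and without Sora-treated tumor 3 (7.03%). With total counts (3.2%) and without control tumor 3 (1.94%), 1 was called. Log2 fold changes were above 0 for 12 of the 21 and below 0 for 9. The most abundant were B2m, the light chain of the albumin-recycling Fc receptor (log2 fold change -0.21, adjusted p = 0.29), Cd44, a hyaluronan receptor (0.17, 0.29), and Stra6. Cyp24a1, Dio1, and Asgr1 had under 10 reads in every tumor.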

How the data were processed

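RNA-seq libraries of 3 control and 3 Sora-treated tumors were analyzed. The authors deposited raw counts, whole numbers of reads per gene, for 5 tumors in the table used here, and FPKM, that is, counts per gene length and library total, for 6. The study's methods name Bowtie2 and GRCm38, whereas the submitters' processing notes name fastp, HISAT2, HTSeq, and GRCm39. The conflict is unresolved, the gene annotation and strand setting are not given in the sources used here, and coordinates are those of RefSeq on GRCm38.p6, matched by symbol.

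For Sora-treated tumor 4, counts were computed back from FPKM, with lengths per gene taken from the tumors that have both units. The step gave 20951 nonzero values, of which 100% lay at most 0.001 from a whole number, and it returned each count in the 5 known tumors. In that tumor 342 genes without a known length, with 512 reads, were set to 0. Leaving out this tumor restricts the fit to deposited counts.

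Testing was limited to genes that reached 10 counts in 3 or more tumors, and was done with edgeR 4.0.16 (TMM, glmQLFit, glmQLFTest) in R 4.3.3, with Benjamini-Hochberg adjustment and a threshold of 0.05. Alternatives were DESeq2 1.42.0, the scaling and filters of the closing section, limma 3.58.1 on log2(FPKM + 1) or log2(FPKM + 0.1), a replicate block, and leaving out each tumor. Ratios were compared by an exact permutation test over 20 labelings. Standard errors were the log2 fold change over the root of the F statistic. The scripts were tested on simulated data. The members and lists were chosen with earlier results of these data known. Named genes were the members, genes of each list that passed the threshold, or otherwise the 3 most abundant. Other genes given with values (the relatives Afp, Afm, Itih2, Itih5, Kng1, and Kng2, the carriers Trf, Serpina6, and Pzp, and the markers Krt8 and Krt18) were named outside this rule, with their values known. In the lists, 2 genes were matched by synonym. The labels do not say that the tumors came from separate mice, so p-values measure the spread between these samples.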

Additional observations from a re-analysis of the deposited data

How the results depend on the processing

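Over all genes, 543 were called in edgeR (321 higher, 222 lower). The number was 1194 in DESeq2 (619 and 575), 1147 without a filter on low counts (570 and 577), 198 with limma on log2(FPKM + 1) (136 and 62), 38 on log2(FPKM + 0.1), and 0 on log2(FPKM + 1) of all genes (3253 at an unadjusted p under 0.05). With each tumor left out it ranged from 5 (without Sora-treated tumor 4) to 1145 (without Sora-treated tumor 3). Of the tested members, 2 were called as reported, and 3 in DESeq2 or without a filter on low counts, with Rbp4 called higher. Limma called 1 with either 1 or 0.1 FPKM added and 0 with log2(FPKM + 1) of all genes. From 1 to 2 were called with a tumor left out, and without control tumor 3 the 2 were Ttr (lower) and Rbp4 (higher). Of the other plasma carriers, 2 were called as reported, 3 in DESeq2, and 4 without a filter on low counts. Limma called 1 on log2(FPKM + 1) and 0 on log2(FPKM + 0.1) or on log2(FPKM + 1) of all genes. From 0 to 2 were called with a tumor left out. The size factors of DESeq2, total counts, or a mean of at least 50 counts left these 3 numbers within 1.5 times. With a replicate block for the numbers of the labels, 125 genes were called in edgeR (80 higher, 45 lower), or 0.757% of all tested genes. They included 1 member (Ttr, adjusted p = 0.015, with Alb at 0.24), 1 other carrier, and 4 of 6 skin markers, called higher. The median of the members was -0.42. The labels share the numbers 3 and 4 only, so with this block the group difference rests on tumors 3 and 4 of each group. The deviations of these same-numbered tumors had correlations of -0.033 and -0.074, so the numbers were not taken as a pairing. With a tumor left out, log2 fold changes far from the threshold changed sign for Gc (-0.19 to 0.038, above 0 without Sora-treated tumor 2 or 3), Fetub (-0.22 to 0.065, above 0 without control tumor 3), and Ambp (-0.50 to 0.076, above 0 without control tumor 4). The ratios and the summed FPKM moved by less than the spread between tumors with 0.1 FPKM added or any 1 tumor left out. The causes were not tested. Genes with few reads, such as Ahsg, Itih3, and Itih4, are limited by depth.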

Other observations

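Among the other plasma carriers with few reads, Serpina6 and Pzp were singled out after their values were seen. Serpina6, which encodes the plasma carrier of corticosteroids, had 5, 17, and 34 reads in control tumors 1, 3, and 4 and 3, 2, and 4 reads in Sora-treated tumors 2, 3, and 4, too few for the filter on low counts. The groups did not overlap, at 5 reads in control tumor 1 against 4 in Sora-treated tumor 4. Without that filter the adjusted p was 0.045 (log2 fold change -2.51, edgeR), in a fit that called 4.54% of all genes. DESeq2 gave Serpina6 no adjusted p, and limma on log2(FPKM + 1) of all genes gave 0.46. Pzp, a broad protease inhibitor of plasma, had 16, 25, and 62 reads in control tumors and 11, 7, and 10 reads in Sora-treated tumors. Its log2 fold change was -1.78 (adjusted p = 0.10 with the filter and 0.046 without it, edgeR). The adjusted p of Pzp was 0.056 in DESeq2 and 0.48 in limma on log2(FPKM + 1) of all genes. In both genes control tumor 4 held the most reads, and without it the log2 fold change of Pzp was -1.13 (adjusted p = 0.29, edgeR).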
